A study of Mus musculus with 8 samples.

Results

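The IL-2 receptor and STAT5 axis was followed through 10 genes, chosen by name from the gene symbols of the deposited log2 table and joined to the count table by gene ID. All 10 were found, among 45777 genes listed in the count table, and all 10 were among the 16750 genes with enough counts to be tested. They were the cytokine gene Il2, the receptor chain genes Il2ra, Il2rb, Il2rg and Il15ra, the transcription factor genes Stat5a and Stat5b, and the feedback genes Cish, Socs1 and Socs3. RNA-seq counts came from CD8+ T cells isolated from spleen and lymph node of C57BL/6 mice. All groups, the vehicle group included, received antibodies to CD3 and CD28 and were kept for 48 hours with EnPGC-1, with SGC-CBP30, with Ctrl PIP or with the vehicle DMSO. Each of the 4 groups held 2 libraries, 8 libraries in all. SGC-CBP30 blocks the bromodomains of CBP and p300, enzymes that acetylate histones; Ctrl PIP is by its name the control compound, and the study's title concerns mitochondrial biogenesis and antitumour immunity. Doses are missing from the labels, so no match of the compounds by dose was possible, and so are age and sex of the mice. Nor do the labels tell whether the 2 libraries of a group stem from different mice or cultures. A p-value here therefore reflects only how far these libraries scatter, which may be technical scatter.

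Interleukin-2 is a growth factor that activated T cells make and also consume. It binds a receptor of an alpha chain (Il2ra, CD25), a beta chain (Il2rb, CD122) and the common gamma chain (Il2rg, CD132). The kinases JAK1 and JAK3 on the beta and gamma chains then phosphorylate STAT5A and STAT5B, which enter the nucleus and bind DNA. Among the genes that STAT5 turns on are Il2ra, which raises the affinity for IL-2, and Cish and Socs1, whose products hold the signal back. Activated CD8+ T cells are known to carry all receptor chains, while most of the IL-2 of an immune response is made by CD4+ T cells and by CD8+ cells early after stimulation.

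Total counts ranged from 38890043 to 55491261 per library. Genes of T cells in general (the CD3 chains) and of CD8+ T cells (Cd8a and Cd8b1) were detected in every library. Together they summed to between 2890 and 4285 CPM (counts scaled to library size). Within DMSO and within EnPGC-1 the replicates differed widely: the coefficient of variation between replicates was 0.543 in those groups, 0.154 in Ctrl PIP and SGC-CBP30, and 0.415 over all 8 libraries. Rn18s-rs5, a gene model of 18S ribosomal RNA, was at 8778 and 9243 CPM of total counts in replicate 2 of EnPGC-1 and of DMSO and between 1139 and 2443 in the other 6 libraries, and its part in the results was not tested. The libraries also differed in a trend on transcript length, both between replicates and between groups. The Spearman rho over 9291 genes between transcript length and a gene's deviation from its mean was 0.504 and -0.553 in replicates 1 and 2 of EnPGC-1, 0.561 and 0.505 with SGC-CBP30, -0.543 and -0.195 with Ctrl PIP, and 0.593 and -0.637 with DMSO. Both SGC-CBP30 libraries were above 0 and both Ctrl PIP libraries below it, so in that comparison compound and trend cannot be told apart. Because replicates differed, each member's replicate values are given before any fold change. The RNA is that of whole cell populations, in which fewer cells of a type and less RNA per cell cannot be told apart.

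**Figure D1:**
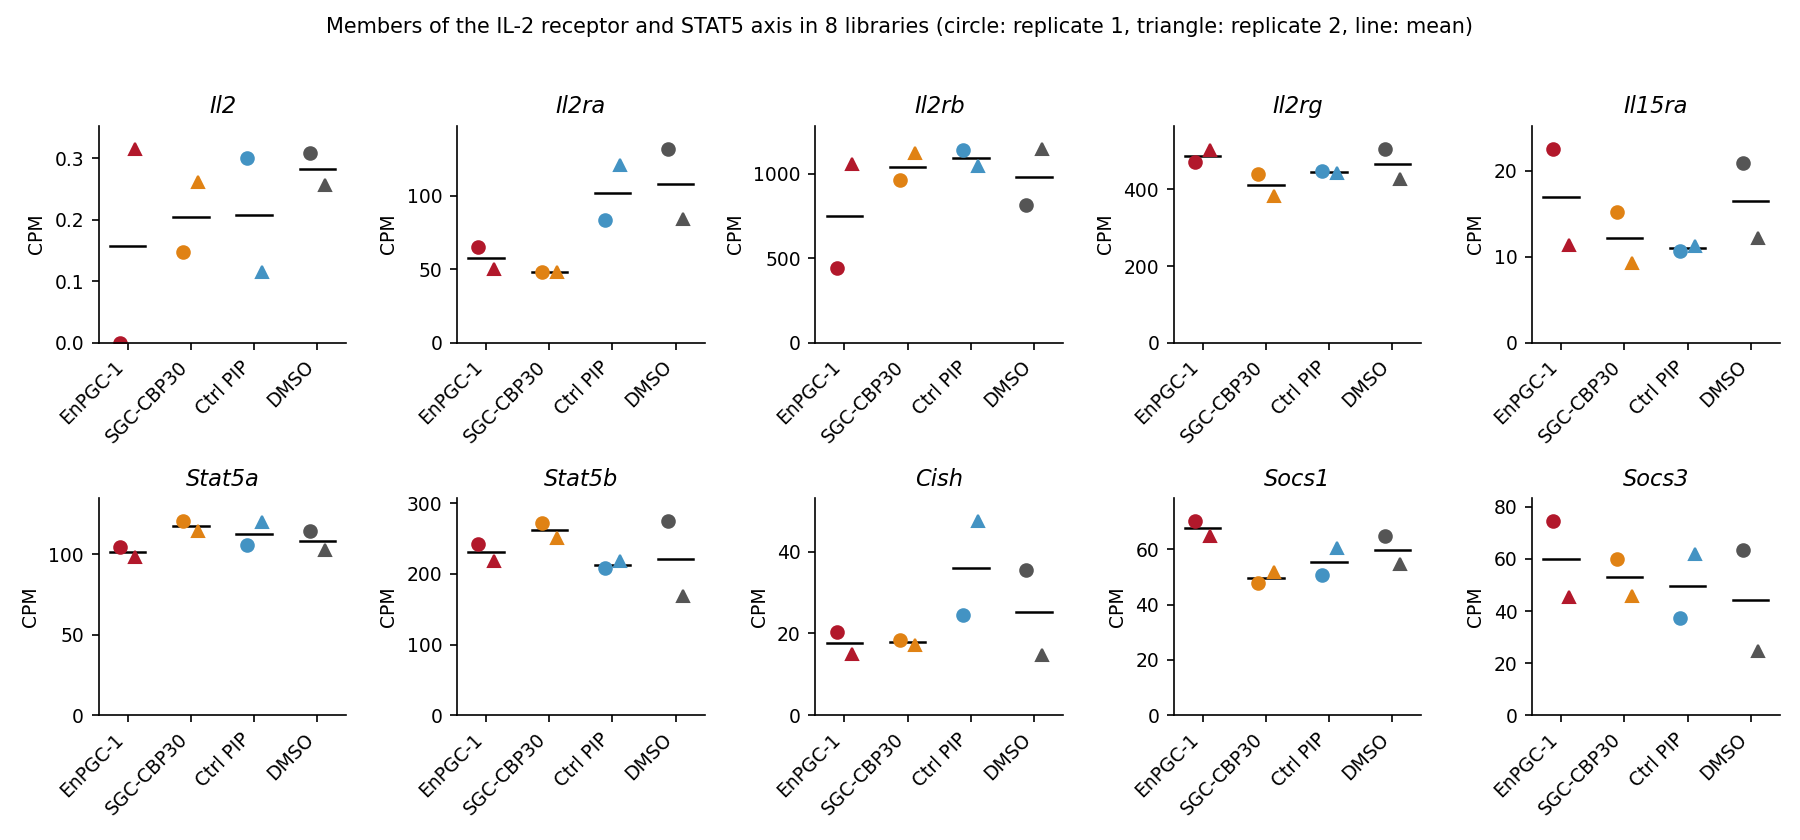
CPM of each of the 10 genes (vertical axis, linear, from 0) in the 8 libraries, grouped along the horizontal axis as EnPGC-1, SGC-CBP30, Ctrl PIP and DMSO. Circles are replicate 1, triangles replicate 2, and lines group means. Il2ra is the gene for which all 4 EnPGC-1 and SGC-CBP30 libraries (47.8 to 64.8 CPM) lie below all 4 Ctrl PIP and DMSO libraries (83.2 to 132 CPM). The share of all genes with this split was not counted.

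The transcripts differed widely in abundance. Per kilobase of the longest protein-coding transcript, the common gamma chain Il2rg was the most abundant, with a mean of 271 RPKM over the 8 libraries and a range of 230.1 to 303 RPKM. Il2rb followed at 231 RPKM, with a range of 106 to 274 RPKM that overlapped that of Il2rg. Stat5b averaged 44.4 RPKM (32.3 to 52.6) and Stat5a 28.3 RPKM (25.2 to 31.0), and these ranges did not overlap. Socs3 (20.2 RPKM), Socs1 and Il2ra (17.9 RPKM) came next, in overlapping ranges between 9.71 and 29.9 RPKM. Cish averaged 8.49 RPKM and Il15ra 7.31 RPKM, also with overlapping ranges. Il2 was last at 0.186 RPKM, and its highest library (0.276 RPKM) was below the lowest of Il15ra (4.78 RPKM). The beta and gamma chains were thus more than an order of magnitude above the alpha chain in level per length, as means over the 8 libraries.

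Il2, which encodes the cytokine itself, lies on chromosome 3 (chr3:37120713-37125954, minus strand, GRCm38.p6) and overlaps Adad1 on the other strand. It was barely detected at 48 hours. The counts were 0 and 17 with EnPGC-1, 8 and 14 with SGC-CBP30, 15 and 6 with Ctrl PIP, and 13 and 13 with DMSO. The highest library, replicate 2 of EnPGC-1, stood at 0.316 CPM, and the 0 in replicate 1 allows up to 0.0729 CPM (3 counts, counting error only). All groups overlapped. The log2 fold change against DMSO was -0.80 for EnPGC-1 (95% interval -4.40 to 2.79), -0.47 for SGC-CBP30 (-4.03 to 3.095) and -0.44 for Ctrl PIP (-4.00 to 3.12). EnPGC-1 stood at -0.36 against Ctrl PIP (-3.96 to 3.24) and at -0.34 against SGC-CBP30 (-3.93 to 3.25). A difference in Il2 was not detectable at this depth.

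Il2ra, the alpha chain that makes the receptor bind IL-2 with high affinity, lies on chromosome 2 (chr2:11642792-11693194, plus strand). It was at 64.8 and 49.8 CPM with EnPGC-1 and at 47.9 and 47.8 CPM with SGC-CBP30. It was at 83.2 and 121 CPM with Ctrl PIP and at 132 and 84.3 CPM with DMSO. Both EnPGC-1 and both SGC-CBP30 libraries were below every library of Ctrl PIP and of DMSO, and between 2561 and 6269 counts stood behind each value. This split of the 8 libraries was not among the 6 comparisons tested. How many of all genes show it was not counted, for Il2ra or for the genes named below with the same split. As means, Il2ra was at 57.3 ± 10.6 CPM with EnPGC-1, 47.8 ± 0.0636 CPM with SGC-CBP30, 102 ± 26.6 CPM with Ctrl PIP and 108 ± 33.6 CPM with DMSO (SD, n = 2 each).

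Against DMSO, the log2 fold change of Il2ra was -0.92 with EnPGC-1 (SE 0.30, 95% interval -1.63 to -0.20) and -1.18 with SGC-CBP30 (SE 0.30, -1.90 to -0.45). Against Ctrl PIP it was -0.83 with EnPGC-1 (SE 0.30, -1.55 to -0.11) and -1.09 with SGC-CBP30 (SE 0.30, -1.82 to -0.37). Those intervals lay below 0, with unadjusted p-values of 0.0203, 0.00675, 0.0294 and 0.00943 from edgeR's quasi-likelihood test. None passed the Benjamini-Hochberg adjustment over the genes tested, with edgeR adjusted p-values of 0.998, 0.943, 0.812 and 0.871. DESeq2's adjusted p-values for the same comparisons were 0.731, 0.09, 0.501 and 0.186. The comparisons share their DMSO, Ctrl PIP, EnPGC-1 and SGC-CBP30 libraries and are not independent of each other. Ctrl PIP and DMSO overlapped in Il2ra, with a log2 fold change of -0.08 (-0.80 to 0.63). EnPGC-1 and SGC-CBP30 did not overlap, yet their difference of 0.26 (-0.45 to 0.98) had an interval on both sides of 0. In the order of mean levels, therefore, SGC-CBP30 and EnPGC-1 are neighbours that were not resolved from each other, as are Ctrl PIP and DMSO.

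The call for Il2ra changed with the libraries fitted, and the cause of that was not tested. In a fit of only the SGC-CBP30 and Ctrl PIP libraries, Il2ra was lower with SGC-CBP30 at an edgeR adjusted p of 0.0146 (log2 fold change -1.10). In that fit 2470 of the genes tested were called. These groups stood on opposite sides of the length trend, which cannot be told apart from the compound there. Over all alternatives the log2 fold change of Il2ra stayed below 0, between -1.46 and -0.49. This held for EnPGC-1 and SGC-CBP30 against DMSO and against Ctrl PIP. The rank of Il2ra by unadjusted p was 147 for EnPGC-1 against DMSO, 83 for SGC-CBP30 against DMSO, 367 for EnPGC-1 against Ctrl PIP and 97 for SGC-CBP30 against Ctrl PIP, among 16750 genes. In the count table its reads cannot be separated from Gm37881, a gene model that overlaps it on the same strand.

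**Figure D2:**
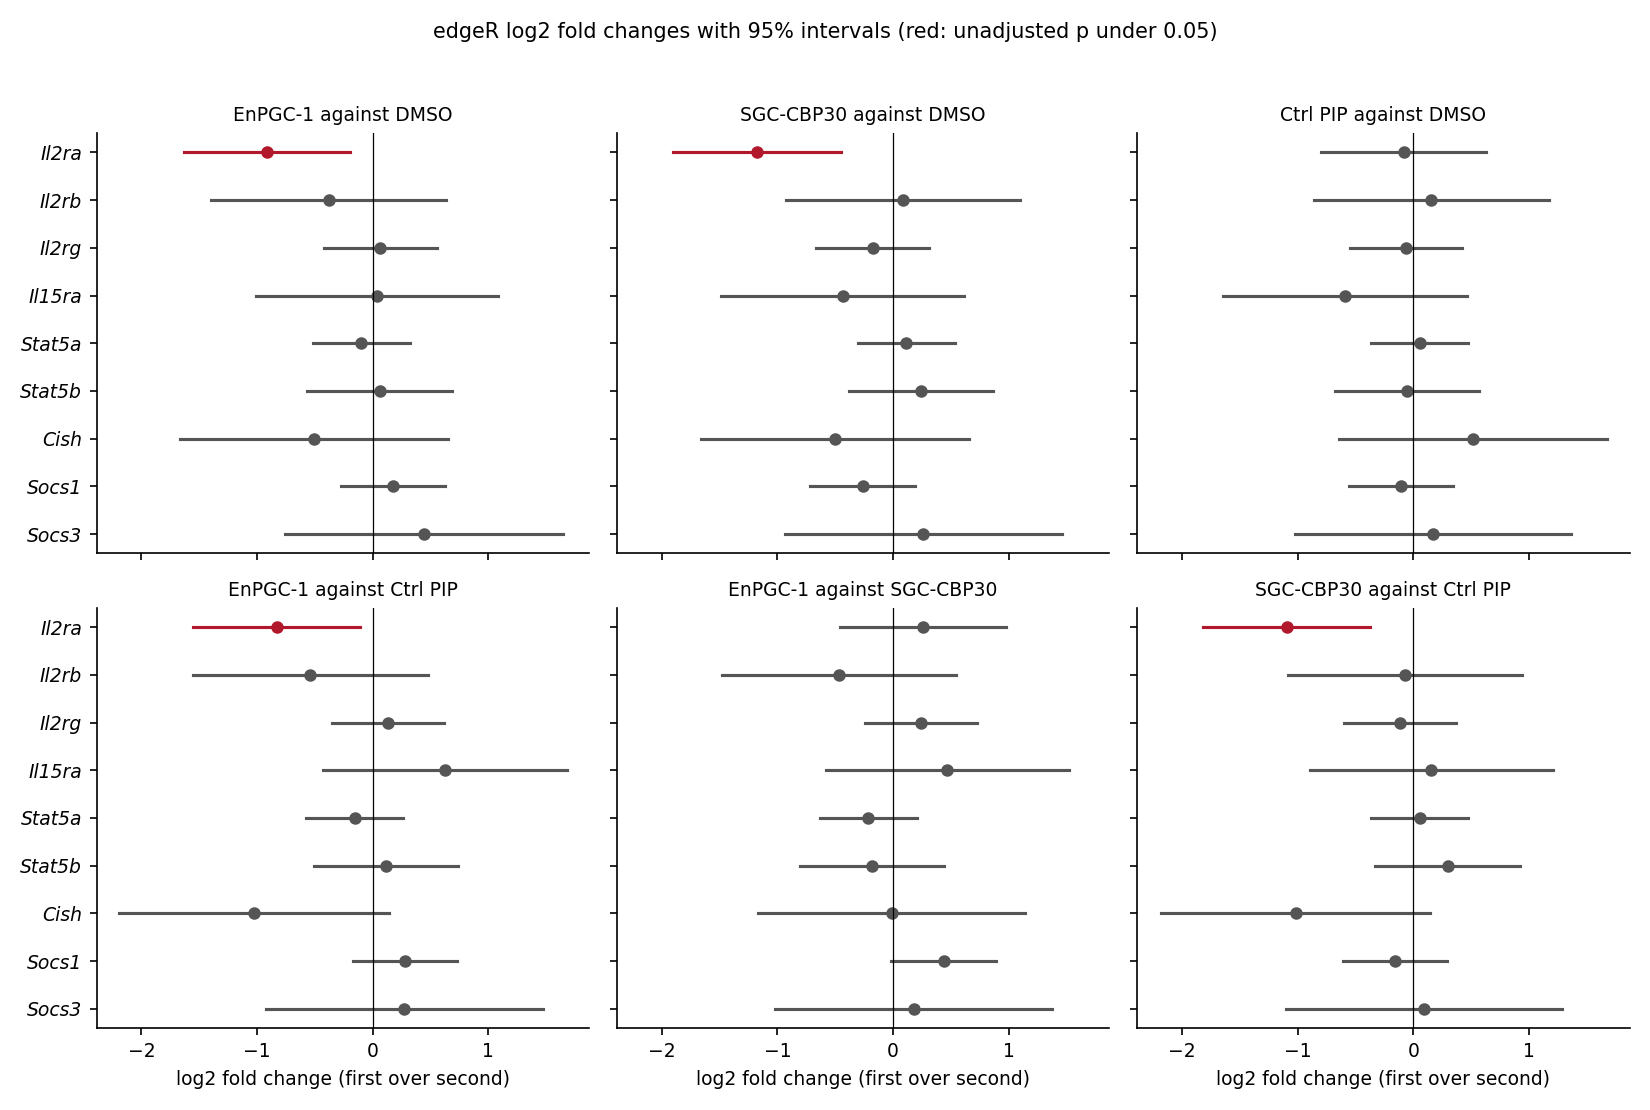
edgeR log2 fold changes (horizontal axis) with 95% intervals for 9 of the 10 genes (Il2, whose intervals span over 7 log2 units, is left out) in the 6 comparisons, one panel each, with the group named first over the group named second. Red marks an unadjusted p under 0.05, which holds only for Il2ra, in the 4 comparisons of EnPGC-1 or SGC-CBP30 with DMSO or Ctrl PIP.

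Il2rb, the beta chain shared by the receptors of IL-2 and IL-15, lies on chromosome 15 (chr15:78479256-78511621, minus strand). It was at 445 and 1061 CPM with EnPGC-1, 962 and 1121 CPM with SGC-CBP30, 1142 and 1047 CPM with Ctrl PIP, and 814.5 and 1148 CPM with DMSO. Replicate 1 of EnPGC-1 was the lowest library and stood 2.38-fold below its replicate, while the other 7 lay between 814.5 and 1148 CPM. The groups overlapped in every comparison. Against DMSO the log2 fold change was -0.38 with EnPGC-1 (95% interval -1.40 to 0.63), 0.09 with SGC-CBP30 (-0.93 to 1.10) and 0.16 with Ctrl PIP (-0.86 to 1.17). EnPGC-1 stood at -0.54 against Ctrl PIP (-1.56 to 0.48) and at -0.47 against SGC-CBP30 (-1.48 to 0.55). Without replicate 1 of EnPGC-1 the value was 0.12 against DMSO and 0.029 against SGC-CBP30, so these directions rested on that library. Against Ctrl PIP it was -0.048 without that library and below 0 in all 14 alternatives, so there the size but not the direction rested on it.

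Il2rg, the common gamma chain of the receptors for IL-2, IL-4, IL-7, IL-9, IL-15 and IL-21, lies on the X chromosome (chrX:101264385-101268255, minus strand) and overlaps the gene model Gm20489 on the same strand. It was at 473 and 503 CPM with EnPGC-1, 441 and 384 CPM with SGC-CBP30, 448 and 444 CPM with Ctrl PIP, and 506 and 426 CPM with DMSO. This was an even gene, with 1.32-fold between its highest and lowest libraries. Against DMSO the log2 fold change was 0.07 with EnPGC-1 (95% interval -0.42 to 0.55), -0.18 with SGC-CBP30 (-0.66 to 0.31) and -0.06 with Ctrl PIP (-0.55 to 0.42). EnPGC-1 stood at 0.13 against Ctrl PIP (-0.36 to 0.62) and at 0.24 against SGC-CBP30 (-0.24 to 0.73). Its libraries lay above those of Ctrl PIP and of SGC-CBP30 without overlap, and both intervals included 0.

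Il15ra, the alpha chain that presents IL-15 to the beta and gamma chains, lies beside Il2ra on chromosome 2 (chr2:11705172-11733985, plus strand). It was at 22.5 and 11.3 CPM with EnPGC-1, 15.2 and 9.25 CPM with SGC-CBP30, 10.7 and 11.3 CPM with Ctrl PIP, and 20.9 and 12.2 CPM with DMSO. In EnPGC-1, SGC-CBP30 and DMSO replicate 1 was the higher library, by 1.99-fold, 1.64-fold and 1.71-fold. The log2 fold change against DMSO was 0.04 with EnPGC-1 (95% interval -1.01 to 1.08), -0.44 with SGC-CBP30 (-1.49 to 0.61) and -0.59 with Ctrl PIP (-1.64 to 0.46). EnPGC-1 stood at 0.63 against Ctrl PIP (-0.43 to 1.68) and at 0.47 against SGC-CBP30 (-0.58 to 1.52). Thus the alpha chain genes of IL-2 and IL-15, which neighbour each other, had different orders: Il15ra was highest with EnPGC-1 and DMSO as a mean, and Il2ra with DMSO and Ctrl PIP.

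The balance of beta to alpha chain was taken as the ratio of Il2rb to Il2ra in RPKM within each library. It was 7.22 and 22.4 with EnPGC-1, 21.1 and 24.7 with SGC-CBP30, 14.4 and 9.11 with Ctrl PIP, and 6.50 and 14.3 with DMSO. Both SGC-CBP30 libraries were above every Ctrl PIP and DMSO library, whereas 1 EnPGC-1 library lay among them and the other above them. In replicate 1 of EnPGC-1 both chains were low, and in replicate 2 the alpha chain alone was. The ratio of Il2rb to Il2rg lay between 0.375 and 1.16, and its lowest value was again that of replicate 1 of EnPGC-1.

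Stat5a and Stat5b encode the transcription factors that carry the IL-2 signal to the nucleus. They lie head to head on chromosome 11, Stat5a on the plus strand (chr11:100859351-100885169) and Stat5b on the minus strand (chr11:100780731-100859004). The genes are near copies: 15.8% of the 50-base windows of the longest protein-coding Stat5a transcript, and 11.8% of those of Stat5b, occur in a transcript of the other, so some reads could be counted for either. Stat5a also overlaps Stat3 on the other strand. Stat5a was at 104 and 98.1 CPM with EnPGC-1, 120.4 and 114 CPM with SGC-CBP30, 105 and 120.0 CPM with Ctrl PIP, and 114 and 102 CPM with DMSO. It was the most even of the 10 genes, with 1.23-fold between its highest and lowest libraries. Against DMSO its log2 fold change was -0.10 with EnPGC-1 (95% interval -0.52 to 0.32), 0.12 with SGC-CBP30 (-0.31 to 0.54) and 0.06 with Ctrl PIP (-0.36 to 0.48). EnPGC-1 stood at -0.16 against Ctrl PIP (-0.58 to 0.27) and at -0.21 against SGC-CBP30 (-0.63 to 0.21), with its libraries below those of both groups.

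Stat5b was at 243 and 218 CPM with EnPGC-1, 272 and 251 CPM with SGC-CBP30, 208 and 218 CPM with Ctrl PIP, and 274 and 168 CPM with DMSO. The DMSO libraries were both the highest and the lowest of the 8, 1.63-fold apart, and the other groups lay between them. Against DMSO the log2 fold change was 0.06 with EnPGC-1 (95% interval -0.56 to 0.68), 0.24 with SGC-CBP30 (-0.38 to 0.87) and -0.06 with Ctrl PIP (-0.68 to 0.57). EnPGC-1 stood at 0.12 against Ctrl PIP (-0.51 to 0.74) and at -0.18 against SGC-CBP30 (-0.81 to 0.44). For Stat5a these intervals left room for changes of up to 0.63 log2 units in either direction, and for Stat5b of up to 0.87. The ratio of Stat5b to Stat5a in RPKM was 1.74 and 1.66 with EnPGC-1, 1.68 and 1.64 with SGC-CBP30, 1.47 and 1.35 with Ctrl PIP, and 1.79 and 1.22 with DMSO, above 1 in every library.

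Cish, Socs1 and Socs3 encode proteins of the SOCS family, which are made in response to cytokines and restrain the receptors and JAK kinases. CIS, the product of Cish, is also known as a brake on T cell receptor signalling in CD8+ T cells. STAT5 dimers are known to bind palindromes of the form TTCNNNGAA. This motif was searched in 250 bases before to 50 bases after each annotated start (the motif is its own reverse complement, so 1 search covers both strands). RefSeq promoters on GRCm38.p6 were found for 9 of the 10 genes, with 12 promoters in all, and 2 of those 12 held the motif: Cish, with 2 copies that begin at the start itself and 11 bases after it, and Socs3, with 1 copy 154 bases before it. Of all 32851 promoters of this length, 8.3% held the motif and 0.457% held 2 or more copies. The Cish and Socs3 sequences are shown because they hold the motif (in capitals), and that of Il2ra because it had the smallest unadjusted p of the 10 genes. No match in the Il2ra window says only that these letters are not there. The windows are chr9:107296409-107296708 (plus strand) for Cish, chr11:117969317-117969616 (minus strand) for Socs3 and chr2:11642542-11642841 (plus strand) for Il2ra. The Socs3 window lies inside the Socs3 gene span (chr11:117966079-117970336), so the start used is not the upstream end of that span.
Cish promoter: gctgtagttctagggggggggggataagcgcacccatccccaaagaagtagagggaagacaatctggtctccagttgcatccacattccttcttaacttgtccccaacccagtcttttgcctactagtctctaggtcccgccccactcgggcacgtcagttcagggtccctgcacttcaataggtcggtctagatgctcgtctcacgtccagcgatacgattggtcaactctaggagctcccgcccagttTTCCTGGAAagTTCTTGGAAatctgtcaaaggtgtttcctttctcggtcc
Socs3 promoter: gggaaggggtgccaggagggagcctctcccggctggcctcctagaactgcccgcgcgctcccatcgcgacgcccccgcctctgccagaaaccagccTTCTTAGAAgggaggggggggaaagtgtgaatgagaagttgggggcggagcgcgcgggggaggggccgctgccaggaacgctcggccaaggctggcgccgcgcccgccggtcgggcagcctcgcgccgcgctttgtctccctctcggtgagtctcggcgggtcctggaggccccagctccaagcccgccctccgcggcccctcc
Il2ra promoter: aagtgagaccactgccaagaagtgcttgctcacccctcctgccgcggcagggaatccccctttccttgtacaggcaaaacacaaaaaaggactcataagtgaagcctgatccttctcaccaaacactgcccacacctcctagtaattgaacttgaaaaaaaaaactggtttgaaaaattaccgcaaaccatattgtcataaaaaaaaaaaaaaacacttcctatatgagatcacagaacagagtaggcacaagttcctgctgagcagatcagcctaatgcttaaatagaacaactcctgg

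Cish (chr9:107296659-107302784, plus strand, overlapping the gene models Gm17040 and Gm17041 on the other strand) was at 20.5 and 14.9 CPM with EnPGC-1 and at 18.5 and 17.2 CPM with SGC-CBP30. It was at 24.6 and 47.5 CPM with Ctrl PIP and at 35.7 and 14.7 CPM with DMSO. The EnPGC-1 and SGC-CBP30 libraries were low and close together, between 14.9 and 20.5 CPM. Both lay below Ctrl PIP without overlap, but DMSO lay on either side of them. Against Ctrl PIP the log2 fold change was -1.03 with EnPGC-1 (95% interval -2.20 to 0.14, unadjusted p = 0.0749, edgeR adjusted p = 0.812 by Benjamini-Hochberg), an interval that includes 0. Without replicate 2 of Ctrl PIP, the highest library, it was -0.47. Against DMSO it was -0.51 with EnPGC-1 (-1.67 to 0.65), -0.50 with SGC-CBP30 (-1.66 to 0.66) and 0.52 with Ctrl PIP (-0.64 to 1.67). EnPGC-1 stood at -0.01 against SGC-CBP30 (-1.17 to 1.14). Without replicate 1 of DMSO the values against DMSO were 0.28 with EnPGC-1 and 0.29 with SGC-CBP30. Of the 9 genes other than Il2, Cish had the widest span, 3.23-fold between its highest and lowest libraries.

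Socs1, a direct inhibitor of JAK kinases, lies on chromosome 16 (chr16:10783808-10785536, minus strand). It was at 70.1 and 65.0 CPM with EnPGC-1, 47.8 and 51.8 CPM with SGC-CBP30, 50.8 and 60.4 CPM with Ctrl PIP, and 64.8 and 54.6 CPM with DMSO. Both EnPGC-1 libraries were the highest of the 8, and both SGC-CBP30 libraries were below both DMSO libraries. EnPGC-1 stood at 0.44 against SGC-CBP30 (95% interval -0.01 to 0.89, unadjusted p = 0.055, edgeR adjusted p = 1 by Benjamini-Hochberg) and at 0.28 against Ctrl PIP (-0.17 to 0.73). Against DMSO the log2 fold change was 0.18 with EnPGC-1 (-0.27 to 0.63), -0.26 with SGC-CBP30 (-0.71 to 0.19) and -0.10 with Ctrl PIP (-0.56 to 0.35). EnPGC-1 thus had the highest libraries in Socs1, while in Cish its libraries lay on either side of those of SGC-CBP30 and below those of Ctrl PIP.

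Socs3, which restrains receptors such as that of IL-6, lies on chromosome 11 (chr11:117966079-117970336, minus strand). It was at 74.5 and 45.3 CPM with EnPGC-1, 60.0 and 45.8 CPM with SGC-CBP30, 37.4 and 61.7 CPM with Ctrl PIP, and 63.3 and 24.8 CPM with DMSO. The DMSO libraries were 2.56-fold apart and those of EnPGC-1 and Ctrl PIP 1.65-fold each, and all groups overlapped. Against DMSO the log2 fold change was 0.44 with EnPGC-1 (95% interval -0.76 to 1.64), 0.26 with SGC-CBP30 (-0.93 to 1.46) and 0.17 with Ctrl PIP (-1.03 to 1.37). EnPGC-1 stood at 0.27 against Ctrl PIP (-0.93 to 1.47) and at 0.18 against SGC-CBP30 (-1.02 to 1.38). In DMSO and EnPGC-1 the higher library of Il2ra, Il15ra, Stat5a, Stat5b, Cish, Socs1 and Socs3 was replicate 1, the library with the positive length trend in those groups, while that of Il2rb was replicate 2. The part of the length trend in these gaps between replicates was not tested gene by gene. With an offset for the trend, the log2 fold change of Il2rb in SGC-CBP30 against DMSO was -0.065 and that of Cish in EnPGC-1 against SGC-CBP30 was 0.015. The directions of the other member values given here were as without the offset.

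Over the 10 genes, edgeR's quasi-likelihood test with Benjamini-Hochberg adjustment called 0 in each of the 6 comparisons, with 0.812 as the lowest adjusted p. The background was 0% of all genes tested in each comparison. DESeq2 also called 0 of the 10 in each, where it called 0.133% of the genes it tested for EnPGC-1 against DMSO, 0.412% for SGC-CBP30 against DMSO and 0.00597% for Ctrl PIP against DMSO. It called 0.256% for EnPGC-1 against Ctrl PIP, 0.317% for SGC-CBP30 against Ctrl PIP and 0.0537% for EnPGC-1 against SGC-CBP30. At an unadjusted p under 0.05, edgeR had 1 of the 10 genes, Il2ra, on the lower side in 4 comparisons. The background was 2.61% for EnPGC-1 against DMSO, 4.39% for SGC-CBP30 against DMSO, 4.48% for EnPGC-1 against Ctrl PIP and 3.99% for SGC-CBP30 against Ctrl PIP. It had 0 of the 10 for Ctrl PIP against DMSO (background 0.597%) and for EnPGC-1 against SGC-CBP30 (background 2.03%). A share of 1 in 10 is the smallest above 0 that 10 genes can give, so it shows no excess over these backgrounds. It rests on 1 gene, in comparisons that share libraries.

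Groups whose libraries did not overlap were common among all genes, and the members were read against that. For EnPGC-1 against DMSO, 2 of the 10 genes did not overlap (Il2ra below, Socs1 above), where 19.1% of all genes tested did not. For SGC-CBP30 against DMSO it was 2 of 10 (Il2ra and Socs1, both below) with a background of 30.6%, and for Ctrl PIP against DMSO 1 of 10 (Il15ra, below) with 16.2%. For EnPGC-1 against Ctrl PIP it was 7 of 10, with Il2ra, Cish and Stat5a below and Il2rg, Il15ra, Stat5b and Socs1 above, with a background of 42.4%. EnPGC-1 and SGC-CBP30 did not overlap in 5 of 10 (background 27.8%), and SGC-CBP30 and Ctrl PIP in 4 of 10 (background 61.7%). The counts against DMSO were near or below the background. The median log2 fold change of the 10 genes was -0.03 for EnPGC-1 against DMSO, -0.22 for SGC-CBP30 against DMSO and -0.06 for Ctrl PIP against DMSO. The medians of all genes tested were 0.001, -0.04 and -0.05 in the same comparisons.

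**Figure D3:**
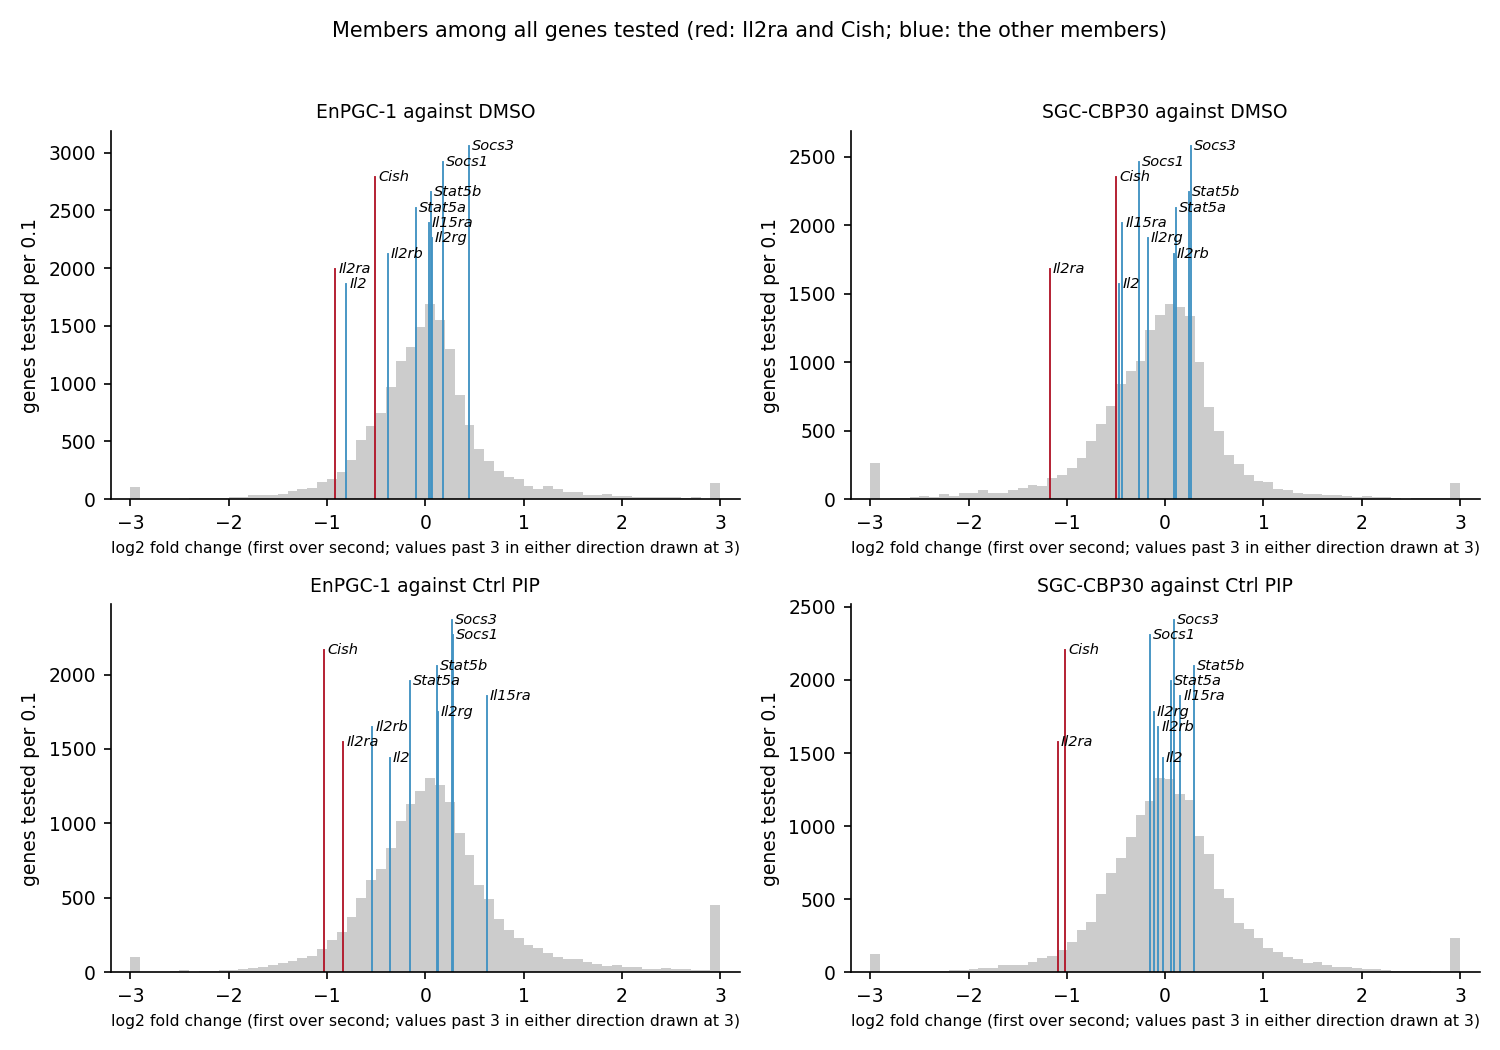
Histograms of edgeR log2 fold changes of all 16750 genes tested (grey, genes per bin of 0.1; values past 3 in either direction are drawn at 3) in 4 comparisons, with lines at the 10 genes. Line height only separates the labels. Of all genes, 5.35% had a lower log2 fold change than Il2ra for EnPGC-1 against DMSO and 6.07% for SGC-CBP30 against DMSO, against 7.17% and 4.36% in the panels against Ctrl PIP, where Cish had 4.59% and 5.05% of genes below it.

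Around these genes, the other parts of the pathway were counted in lists. Of the other cytokines and receptor chains of the common gamma chain family, 5 of 9 were tested (Il4, Il7, Il9 and Il21 had too few counts), and edgeR called 0 in each comparison, with 0 at an unadjusted p under 0.05 and 0 by DESeq2. Against DMSO, 3 of the 5 were above 0 with EnPGC-1, 1 with SGC-CBP30 and 1 with Ctrl PIP. In those comparisons 49.8%, 52.7% and 58.4% of all genes tested were below 0. Il7r, the alpha chain for the survival cytokine IL-7, was at 304 and 73.0 CPM with EnPGC-1 against 206 and 68.8 CPM with DMSO (log2 fold change 0.45, 95% interval -1.34 to 2.24). Il9r was at 12.5 and 1.04 CPM against 3.40 and 2.06 CPM (1.31, -1.02 to 3.65), and Il21r, a receptor chain for IL-21, at 97.6 and 155 against 131 and 195 CPM (-0.37, -1.13 to 0.39). In both Il7r and Il9r a single EnPGC-1 library, replicate 1, was high.

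Of the JAK kinases and the STATs other than STAT5, 8 were counted and all 8 were tested. edgeR called 0 in each comparison, with 0 at an unadjusted p under 0.05 and 0 by DESeq2. With EnPGC-1 6 of 8 were above 0 against DMSO (median 0.15), with SGC-CBP30 6 of 8 (median 0.13) and with Ctrl PIP 0 of 8 (median -0.15). Among all genes tested 49.8%, 52.7% and 58.4% were below 0 in those comparisons. Stat2, which carries type I interferon signals, was at 101 and 86.7 CPM with EnPGC-1 against 85.9 and 59.2 CPM with DMSO (log2 fold change 0.37, 95% interval -0.32 to 1.06). Both EnPGC-1 libraries were above both DMSO libraries. Jak3, the kinase on the common gamma chain, was at 243 and 217 CPM with EnPGC-1 against 315 and 214 CPM with DMSO (-0.20, -0.77 to 0.36), with overlap. Jak2, a kinase of many other cytokine receptors, was at 248 and 176.5 CPM with EnPGC-1 against 242 and 103 CPM with DMSO (0.30, -0.66 to 1.26), also with overlap.

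The other brakes on JAK-STAT signalling numbered 15, all tested, with 0 called by edgeR and 0 by DESeq2 in each comparison. At an unadjusted p under 0.05 there were 0 for EnPGC-1 against DMSO and 0 for Ctrl PIP against DMSO. For SGC-CBP30 against DMSO there were 1 above and 3 below, with a background of 4.39% of all genes tested in either direction. Ptpn6, the phosphatase SHP-1, was at 147 and 155 CPM with EnPGC-1, 140.0 and 147 CPM with SGC-CBP30, 238 and 223 CPM with Ctrl PIP, and 170.2 and 277 CPM with DMSO. The EnPGC-1 and SGC-CBP30 libraries were below all Ctrl PIP and DMSO libraries. The log2 fold change against DMSO was -0.56 with EnPGC-1 (95% interval -1.18 to 0.05). With SGC-CBP30 it was -0.64 (-1.25 to -0.03, edgeR adjusted p = 0.943, DESeq2 adjusted p = 0.524). Ptpn1, a phosphatase of JAK2 and TYK2, stood at -0.30 with EnPGC-1 against DMSO (-0.70 to 0.11), and Pias1, an inhibitor of STAT signalling, at 0.36 (-0.23 to 0.96).

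Genes known to respond to IL-2 or STAT5 in T cells were more often below 0 than above it with each compound against DMSO. Of 23 such genes 22 were tested (Il10 was not). With EnPGC-1 19 of 22 were below 0 against DMSO (median -0.32), with SGC-CBP30 19 of 22 (median -0.53) and with Ctrl PIP 17 of 22 (median -0.21). Of all genes tested 49.8%, 52.7% and 58.4% were below 0 in those comparisons. edgeR called 0 of the 22 in each comparison. At an unadjusted p under 0.05 against DMSO there were 5 below and 0 above with EnPGC-1, and 5 below and 0 above with SGC-CBP30. With Ctrl PIP there were 0 below and 1 above. The background in those comparisons, in either direction, was 2.61%, 4.39% and 0.597% of all genes tested. Against Ctrl PIP, 13 of 22 were below 0 with EnPGC-1 (median -0.19) and 17 with SGC-CBP30 (median -0.41). For EnPGC-1 against SGC-CBP30, 7 were below 0 (median 0.18). Among all genes tested the shares below 0 there were 45.9%, 48.5% and 47.1%. Without replicate 1 of DMSO the count for EnPGC-1 against DMSO was 14 of 22, and that for Ctrl PIP against DMSO was 12 of 22. The list was drawn up with earlier results of these data known, so its direction is no independent evidence.

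Gzmb, which encodes the killing protease granzyme B and is a textbook target of IL-2 in CD8+ T cells, stood lowest. It was at 79.7 and 83.4 CPM with EnPGC-1, 36.4 and 41.6 CPM with SGC-CBP30, 272 and 182 CPM with Ctrl PIP, and 219.9 and 490.4 CPM with DMSO. SGC-CBP30 was below EnPGC-1, and both were below all Ctrl PIP and DMSO libraries. Against DMSO its log2 fold change was -2.12 with EnPGC-1 (95% interval -3.105 to -1.14) and -3.19 with SGC-CBP30 (-4.21 to -2.16), with edgeR adjusted p-values of 0.998 and 0.943 and DESeq2 adjusted p-values of 0.00156 and 1.68e-10 (Benjamini-Hochberg). EnPGC-1 stood at 1.06 against SGC-CBP30 (0.11 to 2.02, edgeR adjusted p = 1, DESeq2 adjusted p = 0.831). Ifng, which encodes interferon gamma, was at 5.71 and 3.36 CPM with EnPGC-1, 2.76 and 2.28 CPM with SGC-CBP30, 6.36 and 9.15 CPM with Ctrl PIP, and 12.6 and 8.02 CPM with DMSO. SGC-CBP30 was again lowest and EnPGC-1 next. Ifng had a log2 fold change against DMSO of -1.18 with EnPGC-1 (-2.14 to -0.23, edgeR adjusted p = 0.998, DESeq2 adjusted p = 0.731). With SGC-CBP30 it was -2.03 (-3.01 to -1.05, edgeR adjusted p = 0.943, DESeq2 adjusted p = 0.00347). Lif, a cytokine of the IL-6 family, stood at -1.38 with EnPGC-1 (-2.63 to -0.13) and -1.45 with SGC-CBP30 (-2.70 to -0.20) against DMSO. Neither was called, with edgeR adjusted p-values of 0.998 and 0.943 and DESeq2 adjusted p-values of 0.926 and 0.416. Against Ctrl PIP DESeq2 called Gzmb and Lta, which encodes lymphotoxin alpha and was picked after its values were seen, lower with SGC-CBP30 (adjusted p = 3.63e-06 and 0.0464), and called 0 of the 22 with EnPGC-1.

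**Figure D4:**
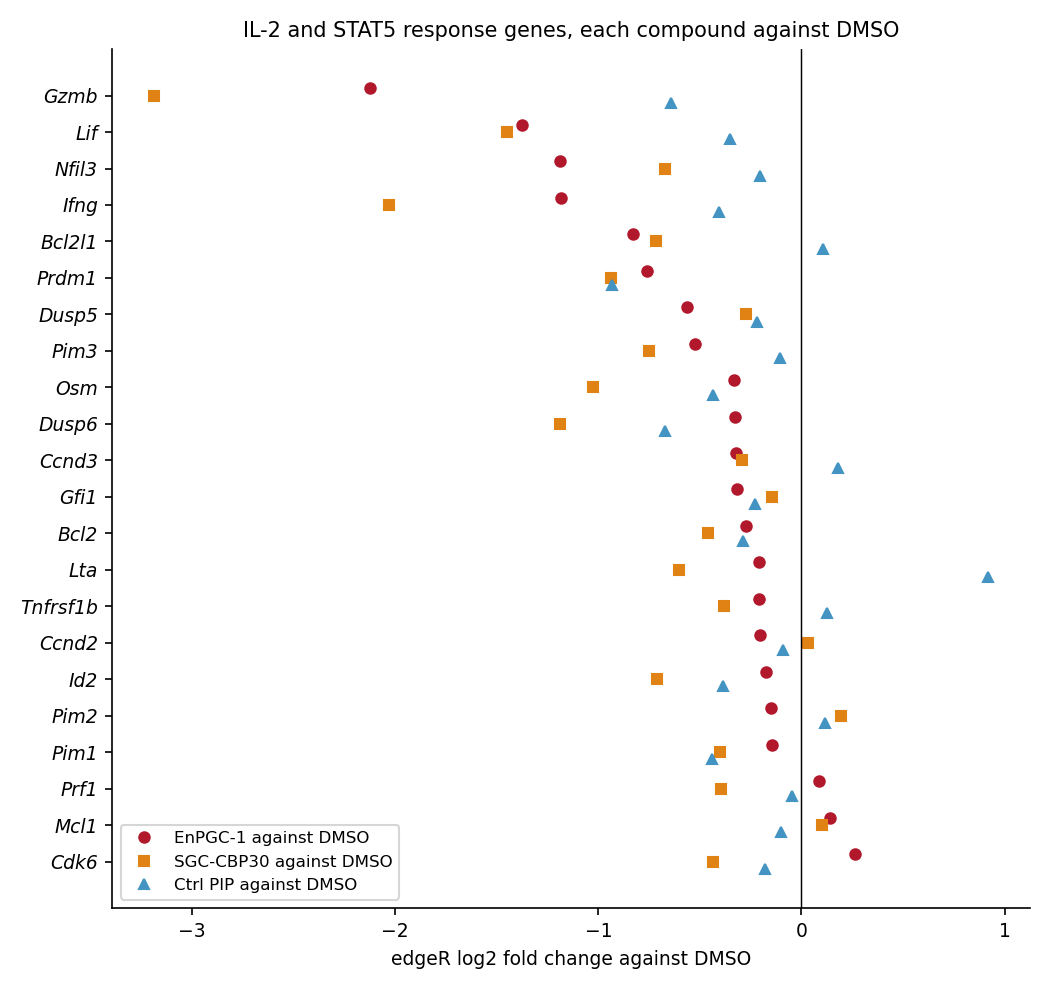
edgeR log2 fold changes against DMSO (horizontal axis) of the 22 tested IL-2 and STAT5 response genes, sorted by EnPGC-1 (circles), with SGC-CBP30 as squares and Ctrl PIP as triangles. Most points lie left of 0 for each compound, and Gzmb is farthest to the left with EnPGC-1 (-2.12) and with SGC-CBP30 (-3.19); the 3 comparisons share the DMSO libraries.

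Of 16 factors that act on the Il2 gene, all tested, edgeR called 0 in each comparison. The list was not split by whether a factor activates or represses Il2, so its counts give no direction for Il2. Against DMSO 6 of 16 were above 0 with EnPGC-1 (median -0.08), 10 of 16 with SGC-CBP30 (median 0.10) and 2 of 16 with Ctrl PIP (median -0.23). Against Ctrl PIP 10 of 16 were above 0 with EnPGC-1 (median 0.16) and 13 of 16 with SGC-CBP30 (median 0.31). Among all genes tested, the shares below 0 against DMSO were 49.8% with EnPGC-1, 52.7% with SGC-CBP30 and 58.4% with Ctrl PIP. Against Ctrl PIP they were 45.9% with EnPGC-1 and 48.5% with SGC-CBP30. DESeq2 called 1, Egr1 with SGC-CBP30 against DMSO, and 0 in the others. Egr1, an immediate early factor of T cell receptor signalling, was at 39.95 and 33.3 CPM with EnPGC-1, 27.8 and 27.3 CPM with SGC-CBP30, 53.3 and 34.9 CPM with Ctrl PIP, and 61.6 and 60.0 CPM with DMSO. All compound libraries were below both DMSO libraries. The log2 fold change of Egr1 against DMSO was -0.73 with EnPGC-1 (95% interval -1.31 to -0.15, edgeR adjusted p = 0.998, DESeq2 adjusted p = 0.731). It was -1.14 with SGC-CBP30 (-1.73 to -0.56, edgeR adjusted p = 0.943, DESeq2 adjusted p = 0.0115) and -0.46 with Ctrl PIP (-1.04 to 0.12). Junb and Fos, subunits of the factor AP-1, stood at -0.63 (-1.51 to 0.26) and -0.63 (-1.87 to 0.61) with EnPGC-1 against DMSO. At an unadjusted p under 0.05 against DMSO the list had 1 below with EnPGC-1, 2 below with SGC-CBP30 and 1 below with Ctrl PIP. It had 0 above in each. The background in either direction was 2.61%, 4.39% and 0.597% of all genes tested.

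Of 11 adaptors and kinases downstream of the receptor, all tested, edgeR and DESeq2 called 0 in each comparison, and 0 had an unadjusted p under 0.05 against DMSO with any compound. Akt1, a kinase of growth and survival, was at 147 and 155 CPM with EnPGC-1, 154 and 156 CPM with SGC-CBP30, 193 and 189.7 CPM with Ctrl PIP, and 176 and 215 CPM with DMSO. As in Ptpn6, the EnPGC-1 and SGC-CBP30 libraries were below all others, with a log2 fold change of -0.37 for EnPGC-1 against DMSO (95% interval -0.81 to 0.07). Sos1, an exchange factor of RAS, stood at 0.34 in that comparison (-0.91 to 1.59). Syk, a kinase abundant in B cells, was at 15.8 and 2.80 CPM with EnPGC-1 against 9.58 and 1.72 CPM with DMSO (0.72, -1.64 to 3.07), high in replicate 1 of both.

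Markers of other cells were present at low levels beside these differences. The summed level of 9 B cell markers was 47.2 to 59.7 CPM with EnPGC-1, 19.4 to 24.2 CPM with SGC-CBP30, 25.5 to 40.9 CPM with Ctrl PIP and 42.9 to 57.1 CPM with DMSO. Of these markers Cr2 was at 0 counts in replicate 2 of SGC-CBP30, and Ebf1 and Cr2 in replicate 2 of Ctrl PIP. The 6 markers of CD4+ and regulatory T cells, which carry much CD25, were all detected in every library. They summed to 148 to 222 CPM with EnPGC-1, 161 to 182 CPM with SGC-CBP30, 98.0 to 113 CPM with Ctrl PIP and 76.4 to 253 CPM with DMSO. Most of each sum was Ikzf2, which encodes Helios, at 185 and 132 CPM with EnPGC-1, 159.7 and 139 CPM with SGC-CBP30, 90.8 and 75.9 CPM with Ctrl PIP, and 208 and 58.4 CPM with DMSO. The other markers went different ways. As group means, Cd4, Foxp3 and Cd40lg were lowest with Ctrl PIP, as was Ikzf2. In Cd4, Foxp3 and Cd40lg the Ctrl PIP and EnPGC-1 libraries overlapped. Cd4 averaged 8.32 CPM with EnPGC-1, 7.59 with SGC-CBP30, 6.93 with Ctrl PIP and 9.33 with DMSO. Lrrc32 was lowest with SGC-CBP30 and Zbtb7b with EnPGC-1. Zbtb7b was at 5.12 and 6.24 CPM with EnPGC-1 and 7.77 and 8.64 CPM with SGC-CBP30, against 10.1 and 8.73 CPM with Ctrl PIP. Foxp3, the defining factor of regulatory T cells, was at 13.8 and 1.61 CPM with EnPGC-1, 3.55 and 2.11 CPM with SGC-CBP30, 1.76 and 2.25 CPM with Ctrl PIP, and 9.46 and 0.198 CPM with DMSO. The 4 NK cell markers summed to 0.464 to 5.07 CPM, with Ncr1 at 0 counts in 5 of 8 libraries, the 7 myeloid markers to 8.86 to 20.1 CPM, with Cd14 at 0 in 5 of 8, and the 4 erythroid markers to 1.14 to 10.6 CPM. Their part in the levels of the 10 genes was not tested.

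The genes whose pattern over the 8 libraries came closest to Il2ra were found by the root mean square difference of mean-centred log2 CPM among 10211 genes with a mean of at least 5 CPM. They were Kcnk5, a potassium channel (0.135 log2 units), Tns1, an adhesion adaptor (0.143), and Il18rap, a chain of the IL-18 receptor (0.190). Kcnk5 was at 5.78 and 5.57 CPM with EnPGC-1, 5.14 and 5.49 CPM with SGC-CBP30, 10.7 and 13.6 CPM with Ctrl PIP, and 14.7 and 9.40 CPM with DMSO. Il18rap was at 21.5 and 19.98 CPM with EnPGC-1, 13.2 and 18.6 CPM with SGC-CBP30, 34.2 and 37.5 CPM with Ctrl PIP, and 46.3 and 32.9 CPM with DMSO. As with Il2ra, every EnPGC-1 and SGC-CBP30 library was below every Ctrl PIP and DMSO library in both. Because both were picked for their likeness to Il2ra, this follows largely from the choice and is no separate result. Closest to Cish were Tns1 (0.294), Eya2 (0.300) and Ankrd13b (0.307), all farther from it than the genes named were from Il2ra. Tns1 stands in both sets, at 27.5 and 19.0 CPM with EnPGC-1, 20.9 and 22.2 CPM with SGC-CBP30, 32.0 and 46.9 CPM with Ctrl PIP, and 43.7 and 31.0 CPM with DMSO.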

How the data were processed

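The authors deposited whole-number counts per gene for 45777 Entrez gene IDs, with 1 column per library and 0 columns of other samples. They also deposited log2 values of 16442 genes (regularized log, per the file name and DESeq2 among the tools), whose header names stand 1 column left of their values, as correlation with the counts showed. The submitters' processing notes name HISAT2, StringTie, DESeq2 and the build mm10. Tool versions, read counter, strand setting, annotation and filters were not given in the sources used here, so overlapping genes may share counts. RNA was extracted with RNeasy and made into libraries with the TruSeq Stranded mRNA kit, per the labels' protocols.

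Symbols, positions and promoters came from RefSeq tables on GRCm38.p6, the assembly called mm10, matching 99.8% of IDs. Lengths were those of the longest protein-coding transcript in the GENCODE mouse annotation, or the longest of any kind where a gene had none, and covered 92.1% of the genes tested.

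The main test was edgeR's quasi-likelihood test of the counts (edgeR 4.0.16, R 4.3.3; robust fit, TMM, filterByExpr by group) on all 8 libraries as 4 group means without covariates, with 16750 genes and 4 residual degrees of freedom. Tests were two-sided, with Benjamini-Hochberg adjustment over all genes tested at 0.05. CPM are scaled by TMM library sizes, and RPKM divide CPM by length. A prior count of 2 was used for log2 CPM. Intervals are 95% intervals of the model and floors are 3 counts. The fit was checked on simulated data.

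The 10 genes and all lists were chosen with earlier results of these data known. All 10 are named, with fold changes for SGC-CBP30 against Ctrl PIP where the unadjusted p was under 0.05. From each list up to 3 genes were named, those with the smallest p for EnPGC-1 against DMSO among genes with a mean of at least 5 CPM in 1 group. 1 gene of the list of JAK kinases and STATs is not reported here and was left out of that list's counts. Other genes named were picked after their values were seen.

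Alternatives were DESeq2 size factors, the Wald test of DESeq2 1.42.0, counts without a filter, a block for the replicate number, a fit of only the 4 libraries compared, limma (3.58.1) on the authors' log2 values, each library left out, replicate 1 (or replicate 2) of DMSO and EnPGC-1 left out together, and an offset for transcript length (mgcv 1.9.3). The block with crossed numbers and the counts of response genes under these settings were chosen after seeing the data.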

Additional observations from a re-analysis of the deposited data

How the results depend on the processing

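With 2 libraries a group and the wide gap between replicates of DMSO and EnPGC-1, the counts of calls turned on which libraries set the spread. edgeR called 0 genes in each comparison in the fit reported, as it did with DESeq2 size factors, without the filter, with limma on the deposited log2 values and with the length offset. DESeq2 called 21 genes for EnPGC-1 against DMSO, 69 for SGC-CBP30 against DMSO and 1 for Ctrl PIP against DMSO. It called 42 for EnPGC-1 against Ctrl PIP, 9 for EnPGC-1 against SGC-CBP30 and 49 for SGC-CBP30 against Ctrl PIP. The fit of only 4 libraries called 2470 genes for SGC-CBP30 against Ctrl PIP, 2 members among them (Il2ra and Cish, both lower). Leaving out single libraries called 0 genes and 0 members in each comparison. Fits with 1 library for a group take its spread from the other groups, an assumption the data cannot check.

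With replicate 1 of both DMSO and EnPGC-1 left out, 1095 genes were called for EnPGC-1 against DMSO, 6314 for SGC-CBP30 against DMSO, 1 for Ctrl PIP against DMSO, 41 for EnPGC-1 against Ctrl PIP, 1 for EnPGC-1 against SGC-CBP30 and 2256 for SGC-CBP30 against Ctrl PIP. Members called then were 3 for SGC-CBP30 against DMSO (Il2ra lower, Stat5b and Socs3 higher) and 1 for SGC-CBP30 against Ctrl PIP (Il2ra lower). With both second libraries left out, 0 genes were called for EnPGC-1 against DMSO, 15 for SGC-CBP30 against DMSO, 2365 for Ctrl PIP against DMSO, 5183 for EnPGC-1 against Ctrl PIP, 883 for EnPGC-1 against SGC-CBP30 and 1866 for SGC-CBP30 against Ctrl PIP. Members called then were 2 for EnPGC-1 against Ctrl PIP (Il2rb lower, Il15ra higher), 1 for EnPGC-1 against SGC-CBP30 (Il2rb lower) and 1 for SGC-CBP30 against Ctrl PIP (Il2ra lower). These fits change both the spread and the group means with the libraries they leave out. For SGC-CBP30 against DMSO the log2 fold change of Socs3, 0.26 in the fit reported, reached 1.11 over the alternatives. That of Stat5b went from 0.24 up to 0.65. The cause of the changed calls was not tested.

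Of 51 member log2 fold changes, 28 changed sign under at least 1 alternative, in 67 of 683 pairs of a value and an alternative. None of these was past the threshold in either fit, and the values of Il2ra for EnPGC-1 and SGC-CBP30 against DMSO and Ctrl PIP did not. With both first libraries left out, signs turned for EnPGC-1 against DMSO (0.30 for Il2, -0.10 for Il15ra and 0.017 for Cish) and for SGC-CBP30 against DMSO (-0.14 for Il2rb, 0.0058 for Il15ra and 0.28 for Cish). They turned for Ctrl PIP against DMSO (0.28 for Il2ra, -0.068 for Il2rb, 0.066 for Il2rg, 0.34 for Stat5b and 0.026 for Socs1) and for EnPGC-1 against Ctrl PIP (0.60 for Il2 and -0.13 for Socs3). For EnPGC-1 against SGC-CBP30 the values were 0.62 for Il2, 0.028 for Il2rb, -0.11 for Il15ra and -0.23 for Socs3. With both second libraries left out, signs turned for EnPGC-1 against DMSO (-0.091 for Il2rg and -0.17 for Stat5b), SGC-CBP30 against DMSO (-0.066 for Stat5b and -0.26 for Socs3), Ctrl PIP against DMSO (-0.013 for Stat5a and -0.34 for Socs3) and EnPGC-1 against SGC-CBP30 (0.20 for Cish). The length offset gave -0.065 for Il2rb in SGC-CBP30 against DMSO and 0.015 for Cish in EnPGC-1 against SGC-CBP30, where DESeq2 size factors gave 0.0063 and DESeq2 0.0065. In these fits the cause was not tested.

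With each library left out in turn, the member values whose sign turned ranged as follows for EnPGC-1 against DMSO: -6.81 to 0.17 for Il2, -1.14 to 0.12 for Il2rb, -0.054 to 0.21 for Il2rg, -0.54 to 0.49 for Il15ra, -0.25 to 0.47 for Stat5b, -1.02 to 0.28 for Cish and -0.084 to 1.29 for Socs3. For SGC-CBP30 against DMSO they ranged from -0.13 to 0.35 for Il2rb, -0.84 to 0.016 for Il15ra, -0.069 to 0.65 for Stat5b, -1.001 to 0.29 for Cish and -0.26 to 1.11 for Socs3. For Ctrl PIP against DMSO they ranged from -1.26 to 0.090 for Il2, -0.37 to 0.29 for Il2ra, -0.051 to 0.43 for Il2rb, -0.18 to 0.083 for Il2rg, -0.034 to 0.16 for Stat5a, -0.37 to 0.36 for Stat5b, -0.029 to 1.31 for Cish, -0.23 to 0.043 for Socs1 and -0.35 to 1.02 for Socs3. For EnPGC-1 against Ctrl PIP they ranged from -6.37 to 0.60 for Il2 and -0.14 to 0.68 for Socs3. For EnPGC-1 against SGC-CBP30 they ranged from -6.34 to 0.62 for Il2, -1.23 to 0.029 for Il2rb, -0.11 to 0.88 for Il15ra, -0.26 to 0.20 for Cish and -0.22 to 0.49 for Socs3.

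With the replicate number as a block, edgeR called 0 genes and 0 members in each comparison, as without it, and Il2ra stood at -0.91 for EnPGC-1 against DMSO and -1.16 for SGC-CBP30 against DMSO. The deviations of same-numbered libraries correlated at 0.666 between EnPGC-1 and DMSO, 0.227 between SGC-CBP30 and DMSO, 0.231 between EnPGC-1 and SGC-CBP30, -0.252 between Ctrl PIP and DMSO, -0.226 between EnPGC-1 and Ctrl PIP and -0.039 between SGC-CBP30 and Ctrl PIP, and the labels do not say what the numbers share, so the libraries were not treated as pairs. Blocks with the numbers of a group crossed were also fitted, a choice made after seeing the data. With those of Ctrl PIP crossed, the block called 0 genes for Ctrl PIP against DMSO. With those of EnPGC-1 crossed, it called 0 genes for EnPGC-1 against Ctrl PIP.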
